A study of Mus musculus with 18 samples.

Results

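Chromatin accessibility was described at 3 loci of the mouse genome, those of Cdkn1a, Ccnd1 and Ccnd3, in myoblasts and myocytes with and without MyoD. The members were the ATAC-seq peaks whose summit lay in a fixed window of the mm9 assembly: chr17:29180000-29290000 for Cdkn1a, chr7:152070000-152180000 for Ccnd1 and chr17:47560000-47740000 for Ccnd3. The windows are defined by position alone. They held 227 of the 400115 peaks of 4 peak lists, which merged into 77 of 141979 regions. The Cdkn1a window held 21 of these regions, the Ccnd1 window 20 and the Ccnd3 window 36.

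Cdkn1a encodes p21, an inhibitor of cyclin-dependent kinases that limits phosphorylation of the retinoblastoma protein, and Ccnd1 and Ccnd3 encode the D-type cyclins D1 and D3, the regulatory subunits of the kinases CDK4 and CDK6. When myoblasts leave the cell cycle to become myocytes, p21 is known to accumulate, cyclin D1 to decline and cyclin D3 to stay or to build up in a form bound to the retinoblastoma protein. MyoD, a basic helix-loop-helix transcription factor that binds E-boxes (CANNTG), is known to take part in this exit and to induce p21 in cultured cells. These statements are background; RNA levels of the 3 genes were not analysed here.

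ATAC-seq uses a transposase to place sequencing adapters in open DNA, and a lower value in a bulk sample does not tell fewer cells with open DNA from less opening per cell. The cells came from skeletal muscle of MyoD-null (MyoD knockout) and wild-type mice, and the 12 ATAC-seq samples formed 4 groups of 3: MyoD-null myocytes, wild-type myocytes, MyoD-null myoblasts and wild-type myoblasts, the myocytes after 24 h of myogenic differentiation. The knockout allele, the age of the mice and whether the 3 samples of a group came from separate animals are not given in the labels, and the RNA-seq part of the series (6 samples of the mouse C2C12 line, with and without CTCF knockdown) was not analysed here. Each group was available as 1 peak list called on its 3 samples merged, so no value below has an error between replicates, no test between groups was possible and no p-value is given. Peaks were not assigned to genes, so the cell type and the loss of MyoD were not checked against marker genes.

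Labels and peak names disagree on the genotype of the myocyte lists: the peak names inside the list deposited as MyoD-null myocytes call it wild type, and those inside the list deposited as wild-type myocytes call it MyoD knockout. For the myoblast lists the names and the labels give the same genotype. The lists are therefore called here MyoD-null-deposited and wild-type-deposited myocytes, and results that turn on the genotype are given under both readings. Peak names of the myocytes start with a prefix not seen in those of the myoblasts, so differentiation and a difference in processing cannot be told apart. On chromosomes 1 to 19, X and Y the lists held 88233 peaks in MyoD-null-deposited myocytes, 112030 in wild-type-deposited myocytes, 101755 in MyoD-null myoblasts and 98097 in wild-type myoblasts, at genome-wide backgrounds of 6.34, 5.29, 8.54 and 8.18 reads in the same order. The fewest reads at any listed summit were 17, 15, 21 and 20 in that order, so a region missing from a list was not detected at that depth and was not shown to be closed.

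All 3 windows were dense in peaks, and their peaks were mostly below the middle of their list in fold enrichment over the local background. In the Cdkn1a window there were 14 peaks in MyoD-null-deposited myocytes, 18 in wild-type-deposited myocytes, 19 in MyoD-null myoblasts and 14 in wild-type myoblasts, that is 12.7, 16.4, 17.3 and 12.7 per 100 kb, against 4.11, 5.16, 4.82 and 4.61 per 100 kb over chromosome 17. In the Ccnd1 window the same lists held 15, 13, 18 and 15 peaks, or 13.6, 11.8, 16.4 and 13.6 per 100 kb, against 3.71, 4.54, 4.295 and 4.097 over chromosome 7. In the Ccnd3 window they held 22, 29, 25 and 25 peaks, or 12.2, 16.1, 13.9 and 13.9 per 100 kb, on the same chromosome as Cdkn1a. Each window thus carried more than the average of its chromosome in every list, and neither stage nor genotype emptied a window of peaks. Strength is given as the fold enrichment deposited by the authors for each peak, the ratio of the read pileup at the summit to the local background, with 1 added to both. The median fold enrichment in the Cdkn1a window was 3.34, 3.36, 3.00 and 3.41 in the lists in the same order, against 4.43, 4.80, 3.73 and 3.75 over the whole lists. It was 3.78, 4.07, 3.01 and 3.42 in the Ccnd1 window and 3.74, 3.93, 3.11 and 3.10 in the Ccnd3 window, below the whole list in all 12 cases. Summit reads were also set over the genome-wide background in place of the local one. The Cdkn1a medians were then 10.6, 15.2, 7.14 and 7.82, against 7.26, 8.51, 5.50 and 5.50 over the whole lists. They were 10.1, 13.8, 7.55 and 7.335 at Ccnd1 and 9.07, 10.6, 5.74 and 5.135 at Ccnd3. Of these medians, only that of wild-type myoblasts at Ccnd3 lay below its whole list.

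Most of the chromatin that was listed at the 3 loci was listed in every group. Of the 77 regions, 42 (54.5%) were present in all 4 lists, against 45.9% of all regions in the genome. These were 12 of 21 regions in the Cdkn1a window, 12 of 20 in the Ccnd1 window and 18 of 36 in the Ccnd3 window. The next class was made of 11 regions listed in wild-type-deposited myocytes alone (14.3%, against 16.3% of all regions), 4 of them at Cdkn1a, 1 at Ccnd1 and 6 at Ccnd3. A single region, at Ccnd3, was listed in both sets of myocytes and in no myoblasts, and 4 regions were listed in both sets of myoblasts and in no myocytes, 2 at Ccnd1 and 2 at Ccnd3. These classes made up 1.3% and 5.19% of the 77 regions, against 3.42% and 4.64% of all regions.

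Among the 42 regions listed everywhere, both myocyte folds were above both myoblast folds in 21 of them, against 57.7% of such regions in the genome, and below both in 3, against 4.10%. The summits of a region lay a median of 98.5 bp apart between the lists, against 91.0 bp over all shared regions. Below, sites are named by the distance of the strongest summit from the centre of the window, in kb along the mm9 plus strand, and coordinates are mm9 and count from 1. Where folds of a region listed in both groups of a comparison are set against each other, the log2 ratio was centred by subtracting its median over all regions shared by those lists, which was 0.35 for wild-type-deposited myocytes over wild-type myoblasts, 0.17 for MyoD-null-deposited myocytes over MyoD-null myoblasts, 0.02 for MyoD-null over wild-type myoblasts and -0.16 for MyoD-null-deposited over wild-type-deposited myocytes. A region is counted as higher or lower where the centred ratio is past 1.5 times (0.585 in log2). Intervals of folds and ratios are 95% intervals from the reads at the summit (exact Poisson or Clopper-Pearson) and cover counting error only.

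At the Cdkn1a locus the broad -2.6 kb site and the strong -19.0 kb site were listed in every group with overlapping intervals of the fold, while several sites to its right were strongest in, or listed only in, the wild-type-deposited myocytes. Regions listed in those myocytes alone were 4 of the 21 regions of the window, against 16.3% of all regions. The same list held the highest fold at 5 of the 12 regions listed everywhere (41.7%, against 64.1% of such regions in the genome). In the supplied gene order (GRCm38.p6) Cdkn1a lies between Trp53cor1, the gene of the long noncoding RNA lincRNA-p21, and Rab44, a member of the Rab GTPase family. Gene positions in mm9 were not supplied, so no peak is called a promoter. RefSeq (GRCm38.p6) gave 2 promoter windows for Cdkn1a, from 250 bases before to 50 after a transcription start, at chr17:29090729-29091028 and chr17:29093519-29093818 on the plus strand of that build. They are shown because MyoD binds E-boxes, and capitals mark every match to CANNTG:
Cdkn1a promoter 1: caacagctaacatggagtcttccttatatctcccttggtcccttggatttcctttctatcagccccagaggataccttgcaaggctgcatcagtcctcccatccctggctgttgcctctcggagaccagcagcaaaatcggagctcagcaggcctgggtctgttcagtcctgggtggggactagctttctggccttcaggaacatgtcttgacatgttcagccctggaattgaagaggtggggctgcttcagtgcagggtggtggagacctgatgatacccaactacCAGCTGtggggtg
Cdkn1a promoter 2: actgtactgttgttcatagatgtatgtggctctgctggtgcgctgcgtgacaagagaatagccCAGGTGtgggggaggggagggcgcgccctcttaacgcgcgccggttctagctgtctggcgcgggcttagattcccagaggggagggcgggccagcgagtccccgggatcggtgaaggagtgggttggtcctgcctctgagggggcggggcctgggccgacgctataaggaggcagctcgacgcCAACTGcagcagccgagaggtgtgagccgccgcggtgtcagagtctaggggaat
Promoter 1 holds 1 match, CAGCTG at base 288, and promoter 2 holds CAGGTG at base 64 and CAACTG at base 247. A match to CANNTG, which reads the same on both strands, occurs in 72.3% of the 32817 RefSeq promoter windows of this length, and CAGCTG in 16.3%. The GC box GGGCGG, searched on both strands, was absent from promoter 1 and found 2 times in promoter 2 (35.6% of all windows hold it), and TGANTCA, the AP-1 sequence, was found in neither (7.81% of all windows). These matches describe the letters of the windows and no more.

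The widest peak of the Cdkn1a window, the -2.6 kb site at chr17:29230415-29232796, spanned between 2298 and 2382 bp in the 4 lists. Its fold enrichment was 4.501 in MyoD-null-deposited myocytes, 4.29 in wild-type-deposited myocytes, 4.66 in MyoD-null myoblasts and 4.66 in wild-type myoblasts, from 175, 176, 176 and 168 reads at the summit over local backgrounds of 38.1, 40.2, 37.0 and 35.3 reads. The intervals of the 4 folds, which ran from 3.69 at the lowest to 5.41 at the highest, overlapped. Its centred log2 ratio of wild-type-deposited myocytes over wild-type myoblasts was -0.47 (-0.78 to -0.15), since shared regions in general had higher folds in these myocytes and this site did not. By reads over the genome-wide background that ratio was 0.01. The -19.0 kb site at chr17:29215032-29216403 had the highest mean fold of the window, with 6.45 in MyoD-null-deposited myocytes, 6.68 in wild-type-deposited myocytes, 5.94 in MyoD-null myoblasts and 5.38 in wild-type myoblasts. Its centred log2 ratios in the 4 comparisons lay between -0.05 and 0.13, with intervals that all spanned 0. The +22.7 kb site at chr17:29257458-29257992 likewise had 4.80, 5.34, 4.89 and 4.004 in the same order.

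**Figure D1:**
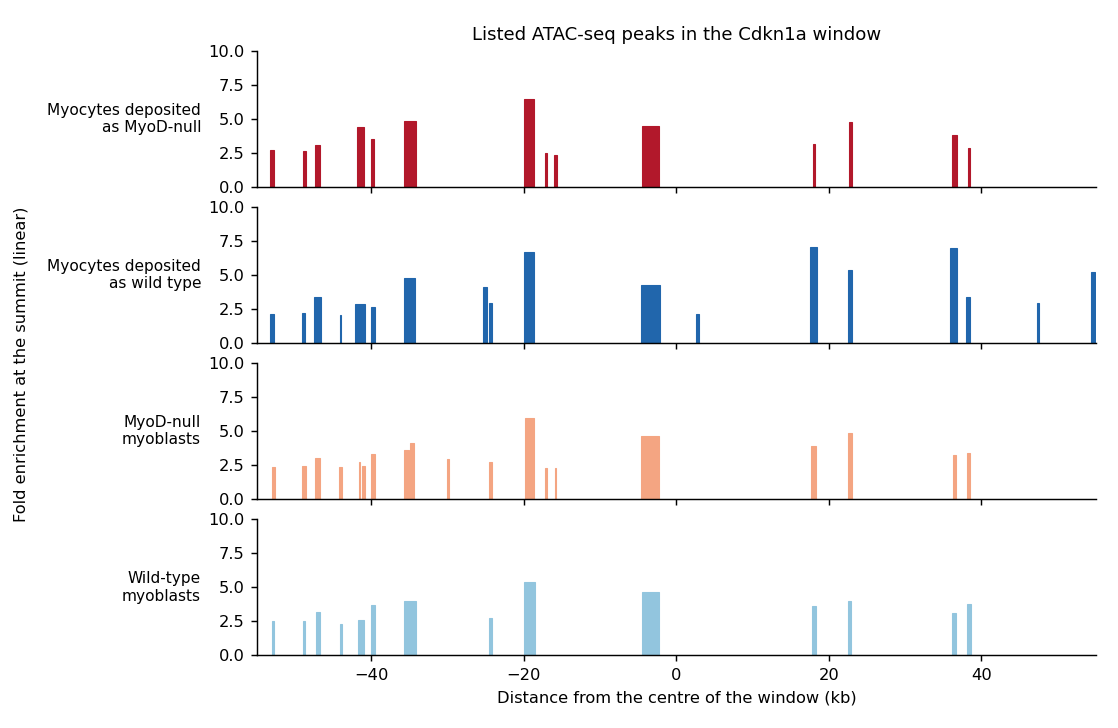
Listed ATAC-seq peaks in the Cdkn1a window. Each bar is 1 peak, with its position and width in kb from the centre of the window on the horizontal axis and its fold enrichment (linear, no unit) on the vertical axis, in 1 panel per list. The broad peak near the centre is of like height in all panels, and the bars at +18.1 and +36.5 kb stand near 7 in wild-type-deposited myocytes and between 3.13 and 3.87 in the others.

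The +18.1 kb site at chr17:29252586-29253382 had a fold enrichment of 3.14 in MyoD-null-deposited myocytes (24 reads), 7.10 in wild-type-deposited myocytes (68 reads), 3.87 in MyoD-null myoblasts (45 reads) and 3.64 in wild-type myoblasts (37 reads). The interval in wild-type-deposited myocytes, 5.54 to 8.97, lay above the other 3, of which the highest bound was 5.15. At the +36.5 kb site, chr17:29270911-29271830, the folds were 3.82, 6.999, 3.25 and 3.13 in the same order, from 37, 117, 54 and 43 reads, and again only the wild-type-deposited myocytes stood apart. The centred log2 ratio of wild-type-deposited myocytes over wild-type myoblasts was 0.62 (0.02 to 1.23) at +18.1 kb and 0.81 (0.30 to 1.35) at +36.5 kb. That of MyoD-null-deposited over wild-type-deposited myocytes was -1.02 (-1.75 to -0.33) and -0.72 (-1.29 to -0.17). The ratios of MyoD-null-deposited myocytes over MyoD-null myoblasts were -0.47 (-1.25 to 0.27) and 0.06 (-0.58 to 0.69), with intervals that span 0, and -0.83 and -0.47 by reads over the genome-wide background. The comparisons that use the wild-type-deposited myocytes share that list, so they are not separate evidence.

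A further site at +54.7 kb, chr17:29289392-29289933, was listed in wild-type-deposited myocytes alone, with a fold enrichment of 5.21 (3.96 to 6.74) from 56 reads. The other sites listed only there were those at -25.1 kb (fold 4.14, 44 reads), +2.6 kb (2.09, 35 reads) and +47.4 kb (2.91, 18 reads). None of the 14 peaks of MyoD-null-deposited myocytes in this window was without overlap in MyoD-null myoblasts, against 16.2% of the whole list. Both MyoD-null-labelled lists, and no other, held the weak sites at -17.2 kb, with folds of 2.50 in myocytes and 2.31 in myoblasts, and at -16.0 kb, with 2.32 and 2.29. This class was 9.52% of the 21 regions, against 0.816% of all regions. Its folds here ranked between the 1.56th and the 2.98th percentile of their lists. By the peak names these lists are wild-type myocytes and MyoD-null myoblasts, so the pattern would then not follow genotype. The site at -30.0 kb was listed in MyoD-null myoblasts alone (2.99, 42 reads). The sites at -44.1 and -24.3 kb were missing from MyoD-null-deposited myocytes and listed in the other 3 lists.

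The left end of the Cdkn1a window differed in another way, in its local background. At the -39.8 kb site, chr17:29194900-29195458, the fold enrichment was 3.53 in MyoD-null-deposited myocytes, 2.68 in wild-type-deposited myocytes, 3.34 in MyoD-null myoblasts and 3.70 in wild-type myoblasts. The wild-type-deposited myocytes had the lowest fold and the most reads, since 105, 132, 98 and 103 reads at the summits stood over local backgrounds of 29.0, 48.6, 28.7 and 27.1 reads. The centred log2 ratio of wild-type-deposited myocytes over wild-type myoblasts was -0.81 (-1.20 to -0.43) by fold, and 0.30 when the summit reads were set over the genome-wide background in place of the local one. At the neighbouring -41.6 kb site, chr17:29192782-29194181, folds of 4.43, 2.84, 2.73 and 2.6 came from 104, 120, 69 and 59 reads over 22.7, 41.6, 24.6 and 22.1. Here MyoD-null-deposited over wild-type-deposited myocytes gave 0.80 (0.41 to 1.19) by fold and -0.13 by reads over the genome-wide background.

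Over the 14 regions of the Cdkn1a window shared by wild-type-deposited myocytes and wild-type myoblasts, the median centred log2 ratio was -0.27 by fold, with 3 above 0 and 11 below. By reads over the genome-wide background it was 0.43, with 12 above 0 and 2 below, so the direction of the median depends on which background the reads are set against. By reads, 6 of the 14 regions were past 1.5 times higher and none lower, against 10.7% of all shared regions in each direction. In MyoD-null-deposited myocytes over MyoD-null myoblasts the 14 shared regions had a median of -0.08 by fold and 0.14 by reads. At +18.1 and +36.5 kb both measures gave the same direction for wild-type-deposited myocytes over wild-type myoblasts, with 0.82 and 1.38 by reads.

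By fold, no shared region of the Ccnd1 locus was past 1.5 times in any of the 4 comparisons (0.305% to 7.76% of all shared regions were, by comparison and direction), and 12 of the 20 regions were listed in every group. Ccnd1 overlaps LTO1 in the supplied gene order, where the next gene is the noncoding Gm46023. The strongest site of the window, +25.1 kb at chr7:152149792-152150879, had a fold enrichment of 7.44 in MyoD-null-deposited myocytes, 9.56 in wild-type-deposited myocytes, 6.81 in MyoD-null myoblasts and 7.59 in wild-type myoblasts, from 64, 73, 66 and 74 reads. It ranked between the 87.2nd and the 95.6th percentile of the 4 lists. Its centred log2 ratio of wild-type-deposited myocytes over wild-type myoblasts was -0.02 (-0.50 to 0.47), so the higher fold in these myocytes was no larger than the general shift of shared regions. The -23.9 kb site at chr7:152100237-152101650 had 6.91, 7.74, 5.79 and 6.02 in the same order, and the -32.0 kb site at chr7:152092638-152093527 had 5.71, 5.58, 5.15 and 4.59. All centred ratios of these 3 sites had intervals that span 0.

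The +42.6 kb site at chr7:152166840-152167966 was higher in both myocyte lists than in both myoblast lists, with a fold enrichment of 6.10 in MyoD-null-deposited myocytes, 6.97 in wild-type-deposited myocytes, 4.46 in MyoD-null myoblasts and 4.44 in wild-type myoblasts. The centred log2 ratios of myocytes over myoblasts were 0.28 (-0.24 to 0.80) for the lists deposited as MyoD-null and 0.30 (-0.27 to 0.87) for those deposited as wild type. By reads over the genome-wide background they were 0.21 and -0.06. The largest ratio of the window in that wild-type comparison was at -10.3 kb, chr7:152114348-152115007, where folds of 4.19, 6.42, 3.52 and 3.61 gave 0.48 (-0.05 to 1.01). The wild-type-deposited myocytes were thus the highest of the 4 lists there too, but the interval of the ratio reached 0. By reads over the genome-wide background the -10.3 kb ratio was 0.10. At -43.1 kb, chr7:152081585-152083159, the MyoD-null-deposited myocytes were lowest, with 3.78, 5.68, 4.84 and 3.90, and their ratio over MyoD-null myoblasts was -0.53 (-1.06 to -0.01).

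A cluster of sites between -4.1 and +4.4 kb of the Ccnd1 window had folds between 2.003 and 4.07 although 59 to 135 reads covered their summits, since local backgrounds there were 22.8 to 40.7 reads. The site with the most reads among them, +2.5 kb at chr7:152127110-152127897, had 3.78, 3.31, 3.73 and 3.42 from 123, 96, 135 and 120 reads. Its ratio of wild-type-deposited myocytes over wild-type myoblasts was -0.40 (-0.80 to 0.00), the lowest of the window in that comparison. Next to it, the weak +1.2 kb site was listed in MyoD-null myoblasts (2.10, 81 reads) and wild-type myoblasts (2.003, 74 reads) and in neither myocyte list. The -11.2 kb site, chr7:152113559-152113992, was also listed in the myoblasts alone, with 2.36 in MyoD-null and 2.85 in wild-type cells. Only 1 of the 13 peaks of wild-type-deposited myocytes had no overlap in wild-type myoblasts, at -31.0 kb (fold 3.71, 30 reads), against 30.0% of the whole list, and 3 of the 15 wild-type myoblast peaks had none in those myocytes, against 18.0%.

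**Figure D2:**
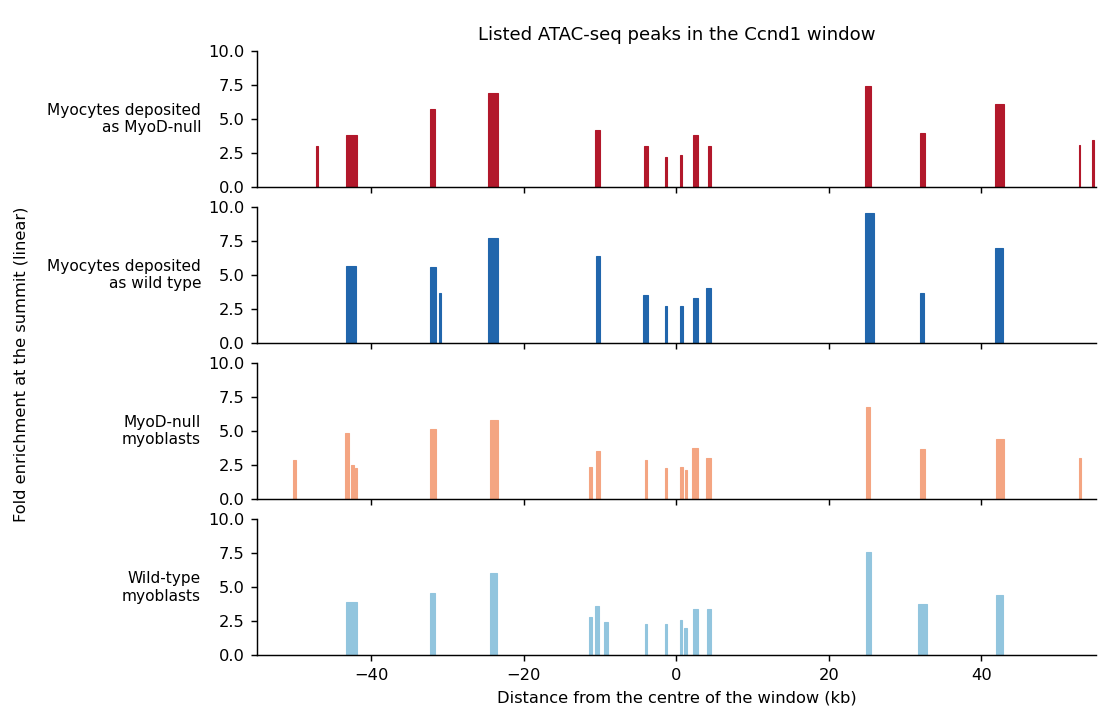
Listed ATAC-seq peaks in the Ccnd1 window. Bars show the position and width of each peak in kb from the centre of the window and its fold enrichment (linear, no unit), in 1 panel per list. The same tall bars, at -23.9, +25.1 and +42.6 kb among others, appear in all 4 panels, with the tallest, 9.56, in wild-type-deposited myocytes.

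The median centred log2 ratio of the 12 Ccnd1 regions shared by wild-type-deposited myocytes and wild-type myoblasts was -0.04 by fold and -0.07 by reads over the genome-wide background. For the 13 regions shared by MyoD-null-deposited myocytes and MyoD-null myoblasts it was -0.10 by fold and -0.09 by reads. Both measures gave the same sign of these medians at Ccnd1. Single regions did pass the mark by reads, with -4.1 kb at 0.60 and +32.3 kb at -0.85 in the wild-type comparison and -43.1 kb at -0.69 in the MyoD-null one. No RefSeq promoter window of Ccnd1 was supplied.

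At the Ccnd3 locus the strong sites near the centre were listed in every group, and several sites to their left were strongest in, or listed only in, wild-type-deposited myocytes. Regions listed in that list alone were 16.7% of the window, against 16.3% of all regions. That list held the highest fold at 10 of the 18 regions listed everywhere (55.6%, against 64.1% of such regions in the genome). In the supplied gene order Ccnd3 follows Taf8, the gene of a TFIID subunit, and overlaps Bysl, a ribosome biogenesis gene, and the noncoding Gm41590. RefSeq (GRCm38.p6) gave 2 promoter windows for Ccnd3, at chr17:47504801-47505100 and chr17:47593217-47593516 on the plus strand of that build. They are shown beside those of Cdkn1a because neither holds a match to CANNTG, so no letter is in capitals:
Ccnd3 promoter 1: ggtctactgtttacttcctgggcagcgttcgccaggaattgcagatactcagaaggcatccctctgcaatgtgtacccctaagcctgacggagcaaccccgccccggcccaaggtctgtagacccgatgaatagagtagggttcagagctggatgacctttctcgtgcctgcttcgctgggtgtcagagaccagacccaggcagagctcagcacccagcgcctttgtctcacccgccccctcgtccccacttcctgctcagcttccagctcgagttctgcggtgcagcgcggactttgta
Ccnd3 promoter 2: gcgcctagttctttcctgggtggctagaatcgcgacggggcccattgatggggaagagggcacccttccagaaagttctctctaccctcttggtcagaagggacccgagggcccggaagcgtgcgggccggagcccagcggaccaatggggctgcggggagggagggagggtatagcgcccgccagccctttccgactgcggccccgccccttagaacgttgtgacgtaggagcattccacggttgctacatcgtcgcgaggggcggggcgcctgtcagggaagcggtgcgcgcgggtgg
Each holds GGGCGG 2 times on either strand, and neither holds TGANTCA. The absence of a match says only that the letters are not in these windows.

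The strongest site by mean fold was at -10.9 kb, chr17:47638633-47639617, with 7.36 in MyoD-null-deposited myocytes, 6.42 in wild-type-deposited myocytes, 6.55 in MyoD-null myoblasts and 6.59 in wild-type myoblasts, from 166, 161, 148 and 145 reads. The 4 intervals overlapped, but by fold the centred log2 ratio of wild-type-deposited myocytes over wild-type myoblasts was -0.39 (-0.72 to -0.05) and that of MyoD-null-deposited over wild-type-deposited myocytes 0.36 (0.04 to 0.68). By reads over the genome-wide background these ratios were 0.09 and 0.12, so the sign of the first depends on the background used. The -1.8 kb site at chr17:47647952-47649004 had 7.29, 6.77, 5.53 and 5.92 in the same order, and the -83.9 kb site at chr17:47565640-47566380 had 7.02, 7.60, 5.29 and 6.15. Both had higher folds in the myocyte lists than in the myoblast lists, by no more than shared regions in general beyond counting error. At -83.9 kb the centred log2 ratio of wild-type-deposited myocytes over wild-type myoblasts was -0.04 by fold and -0.576 by reads over the genome-wide background. That of MyoD-null-deposited myocytes over MyoD-null myoblasts was 0.24 by fold and -0.28 by reads, so its sign depends on the background used. At -1.8 kb these ratios were -0.16 and 0.23 by fold, and 0.20 and 0.38 by reads.

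The +29.2 kb site at chr17:47678730-47679779 was higher in both myocyte lists than in both myoblast lists. Its fold enrichment was 6.97 in MyoD-null-deposited myocytes (83 reads), 8.26 in wild-type-deposited myocytes (141 reads), 4.48 in MyoD-null myoblasts (64 reads) and 4.45 in wild-type myoblasts (59 reads). The centred log2 ratios of myocytes over myoblasts were 0.47 (-0.02 to 0.96) for the lists deposited as MyoD-null and 0.54 (0.09 to 1.01) for those deposited as wild type, both short of the 1.5-times mark. By reads over the genome-wide background they were 0.45 and 1.20, the second past the mark. Between the genotypes the ratios by fold were -0.01 (-0.54 to 0.53) in myoblasts and -0.08 (-0.49 to 0.32) in myocytes. By reads the myocyte ratio was -0.69, past the mark, so the size of the genotype difference depends on the background used.

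The -40.4 kb site at chr17:47609203-47609906 had a fold enrichment of 3.55 in MyoD-null-deposited myocytes, 6.95 in wild-type-deposited myocytes, 2.63 in MyoD-null myoblasts and 2.89 in wild-type myoblasts, from 44, 100, 43 and 42 reads. By fold it gave the largest ratio of the 3 loci for wild-type-deposited myocytes over wild-type myoblasts, 0.92 (0.38 to 1.47). For MyoD-null-deposited over wild-type-deposited myocytes it gave -0.81 (-1.35 to -0.28). By reads over the genome-wide background these ratios were 1.19 and -1.11. The first was then below those of Cdkn1a +36.5 kb (1.38) and Ccnd3 +29.2 kb (1.20). The window held 6 sites listed in wild-type-deposited myocytes alone (16.7% of its 36 regions, against 16.3% of all regions). The strongest, at -62.6 kb, chr17:47587072-47587664, had a fold of 8.49 (6.90 to 10.4) from 96 reads, the highest fold of the window in any list, and ranked at the 89.2nd percentile of its list. The others were at -69.8 kb (6.39, 58 reads), -50.6 kb (6.08, 54 reads), -72.5 kb (2.70, 29 reads), +23.0 kb (3.34, 20 reads) and +44.3 kb (3.98, 24 reads).

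**Figure D3:**
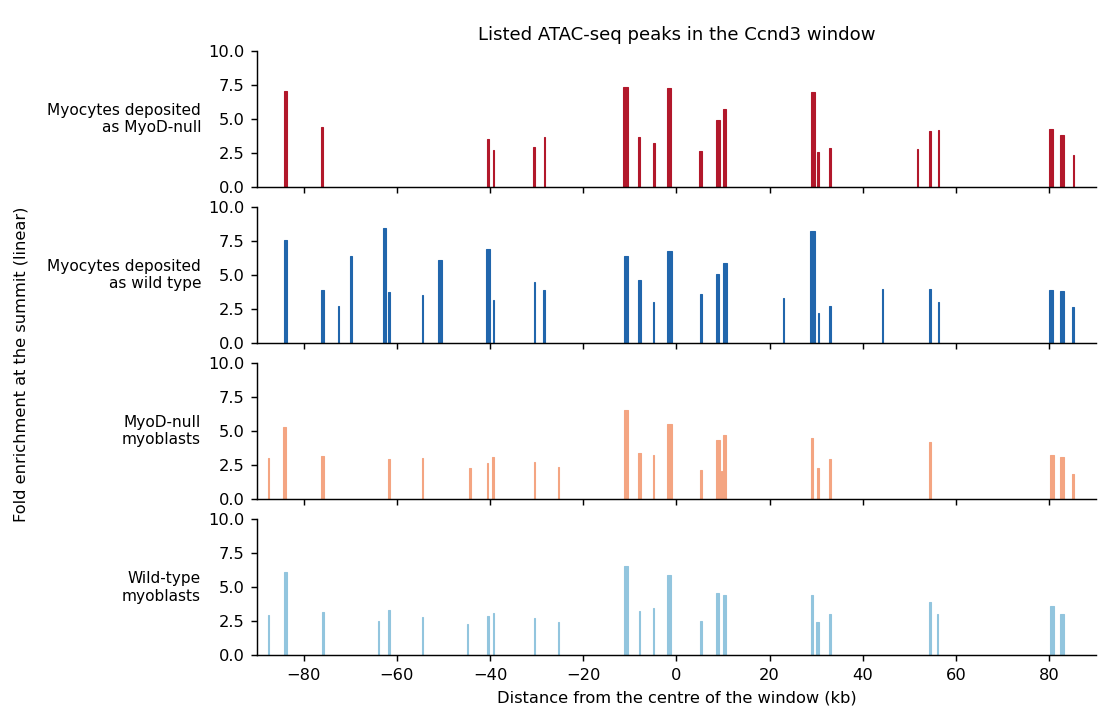
Listed ATAC-seq peaks in the Ccnd3 window. Bars show the position and width of each peak in kb from the centre of the window and its fold enrichment (linear, no unit), in 1 panel per list. Tall bars at -69.8, -62.6 and -50.6 kb, with folds between 6.08 and 8.49, appear in the panel of wild-type-deposited myocytes only, while those at -10.9 and -1.8 kb appear in every panel.

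Of the 18 Ccnd3 regions listed in every group, 12 had both myocyte folds above both myoblast folds (66.7%, against 57.7% of such regions in the genome). Of all 36 regions, 1 was listed in both sets of myocytes alone (2.78%, against 3.42% of all regions) and 2 in both sets of myoblasts alone (5.56%, against 4.64%). The -28.4 kb site was listed in MyoD-null-deposited myocytes (3.66, 43 reads) and wild-type-deposited myocytes (3.91, 39 reads) and in neither myoblast list. The -87.5 kb site, chr17:47562383-47562634, had 3.00 in MyoD-null and 2.99 in wild-type myoblasts and was in neither myocyte list, as was the -25.4 kb site with 2.39 and 2.47. The +56.3 kb site, chr17:47706012-47706395, was missing from MyoD-null myoblasts only. Its fold of 4.196 in MyoD-null-deposited myocytes (35 reads) against 3.02 in wild-type-deposited myocytes (18 reads) was past the mark, with a centred log2 ratio of 0.63 (-0.23 to 1.54), but few reads lay behind it and the interval spans 0.

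Over the 21 Ccnd3 regions shared by wild-type-deposited myocytes and wild-type myoblasts the median centred log2 ratio was -0.16 by fold and 0.13 by reads over the genome-wide background. Over the 19 shared by MyoD-null-deposited myocytes and MyoD-null myoblasts it was 0.10 by fold and 0.21 by reads. Both measures had the same sign in the MyoD-null comparison, while in the wild-type one the sign depended on the background.

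**Figure D4:**
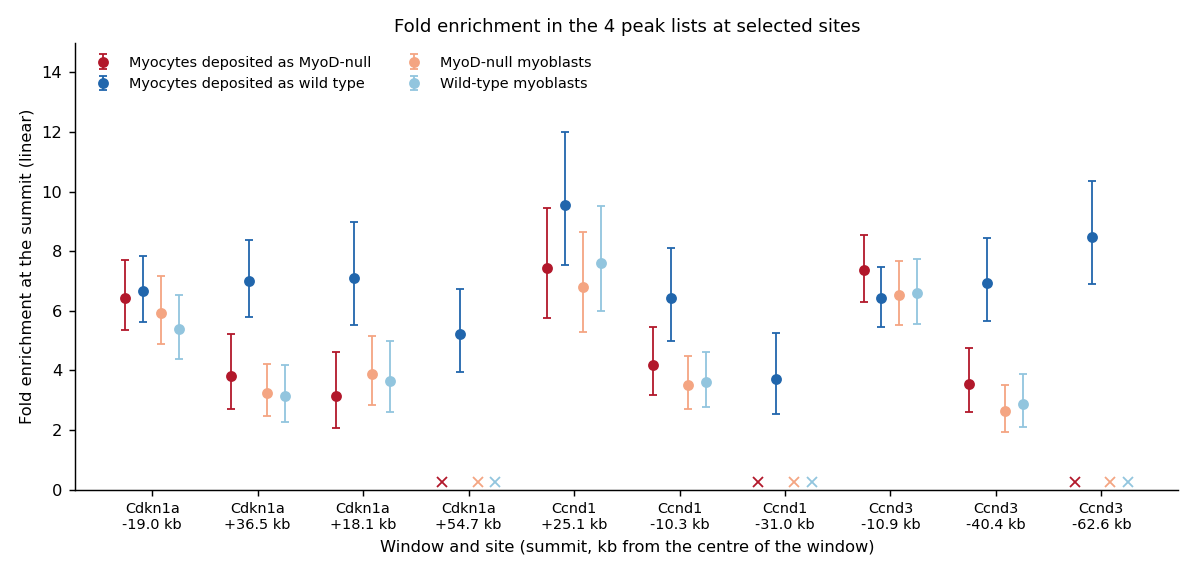
Fold enrichment (linear, no unit) at 10 sites of the 3 windows in the 4 lists. For each window the sites are those with the highest mean fold, with the highest ratio of wild-type-deposited myocytes over wild-type myoblasts, with the lowest ratio of MyoD-null-deposited over wild-type-deposited myocytes, and with the highest fold among those listed in wild-type-deposited and not in MyoD-null-deposited myocytes (a site that meets several is shown once). Bars are 95% Poisson intervals of the summit reads and crosses mark lists without a peak. The wild-type-deposited myocytes stand alone at Cdkn1a +18.1 and +36.5 kb and at Ccnd3 -40.4 kb, and the other 3 lists lie close together there.

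Differentiation was compared over the 3 windows together within each genotype. With the deposited genotypes and by fold, 3 of the 47 regions shared by wild-type-deposited myocytes and wild-type myoblasts were higher in myocytes (7.76% of all 77469 shared regions were) and 2 were lower (4.74% were). Those higher were Cdkn1a +18.1 and +36.5 kb and Ccnd3 -40.4 kb, and those lower were Cdkn1a -39.8 and -53.1 kb, the second of which was named after its values were seen. The ratio at -53.1 kb was -0.588, with an interval of -1.18 to 0.002 that spans 0. By reads over the genome-wide background the lower sites were at 0.30 (-39.8 kb) and -0.005 (-53.1 kb), so neither was lower by that measure. By fold, none of the 46 regions shared by MyoD-null-deposited myocytes and MyoD-null myoblasts was past the mark in either direction, against 3.61% and 2.82% of all shared regions. Among peaks without overlap, 13 of 60 of the wild-type-deposited myocytes had none in wild-type myoblasts (30.0% of the whole list), and 7 of 54 of the wild-type myoblasts had none in those myocytes (18.0%). In the MyoD-null comparison these were 5 of 51 myocyte peaks (16.2%) and 12 of 62 myoblast peaks (24.7%). By fold and by overlap, the counts at the 3 loci were thus at or below the shares of the whole lists. By reads over the genome-wide background, 11 of the 47 regions of the wild-type comparison were higher, a larger share than the 10.7% of all shared regions, and 3 were lower, against 10.7% of all. Of those 11 regions, 8 were not past the mark by fold. Of the 46 regions of the MyoD-null comparison, 2 were then higher (4.84% of all) and 3 lower (8.83%). Read by the peak names, 1 of 43 shared regions was higher in wild-type myocytes and 0 lower (3.37% and 2.50% of all), and 2 of 47 were higher and 1 lower in MyoD-null myocytes (8.04% and 4.97%). Of the peaks, 8 of 51 wild-type myocyte peaks (15.5%) and 11 of 54 wild-type myoblast peaks (22.3%) were then without overlap, and 13 of 60 MyoD-null myocyte peaks (30.0%) and 11 of 62 MyoD-null myoblast peaks (19.8%).

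The loss of MyoD in myoblasts, where labels and peak names give the same genotype, moved no shared region past the mark at the 3 loci by either measure. By fold, none of the 50 regions shared by MyoD-null and wild-type myoblasts was past 1.5 times in either direction, against 0.345% higher and 0.305% lower over all 82889 shared regions, and by reads none, against 0.503% and 0.478%. The median centred log2 ratio of MyoD-null over wild-type myoblasts was 0.01 at Cdkn1a, -0.02 at Ccnd1 and -0.04 at Ccnd3, and single regions lay between -0.29 and 0.30, both at Ccnd1. Of the MyoD-null myoblast peaks, 8 of 62 had no overlap in wild-type myoblasts (14.8% of the whole list), and 4 of 54 wild-type myoblast peaks had none in MyoD-null myoblasts (12.8%). A ratio inside the mark with these read numbers does not show that the groups were alike, since the interval of a single region, such as -0.59 to 0.74 at Cdkn1a +18.1 kb, is wide.

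The myocyte lists differed from each other more than the myoblast lists did. Of the 45 regions shared by MyoD-null-deposited and wild-type-deposited myocytes, 2 were higher (5.21% of all 75157 were) and 3 lower (7.65%) in MyoD-null-deposited myocytes by fold. Those higher were Cdkn1a -41.6 kb and Ccnd3 +56.3 kb, and those lower were Cdkn1a +18.1 and +36.5 kb and Ccnd3 -40.4 kb. By reads over the genome-wide background 1 was higher (9.31% of all) and 7 were lower (11.1%), and Cdkn1a -41.6 kb was at -0.13. Without overlap were 6 of the 51 peaks of MyoD-null-deposited myocytes (13.1% of that list) and 15 of the 60 of wild-type-deposited myocytes (32.0%). The wild-type-deposited list is also the longest, and these shares at the 3 loci lie below its share over the whole list. With all lists at equal length the counts are 12 and 10, so the larger count of the wild-type-deposited list is not kept. At that setting this list held 15, 12 and 22 peaks in the Cdkn1a, Ccnd1 and Ccnd3 windows, against 18, 13 and 29 as deposited. The MyoD-null-deposited list was unchanged, and whole-list shares at equal length are not given. If the peak names hold, each of these directions turns round: the sites at +18.1, +36.5 and -40.4 kb would then be stronger in MyoD-null than in wild-type myocytes. Which reading is right was not tested here, and no locus outside the 3 windows was examined for it.

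**Figure D5:**
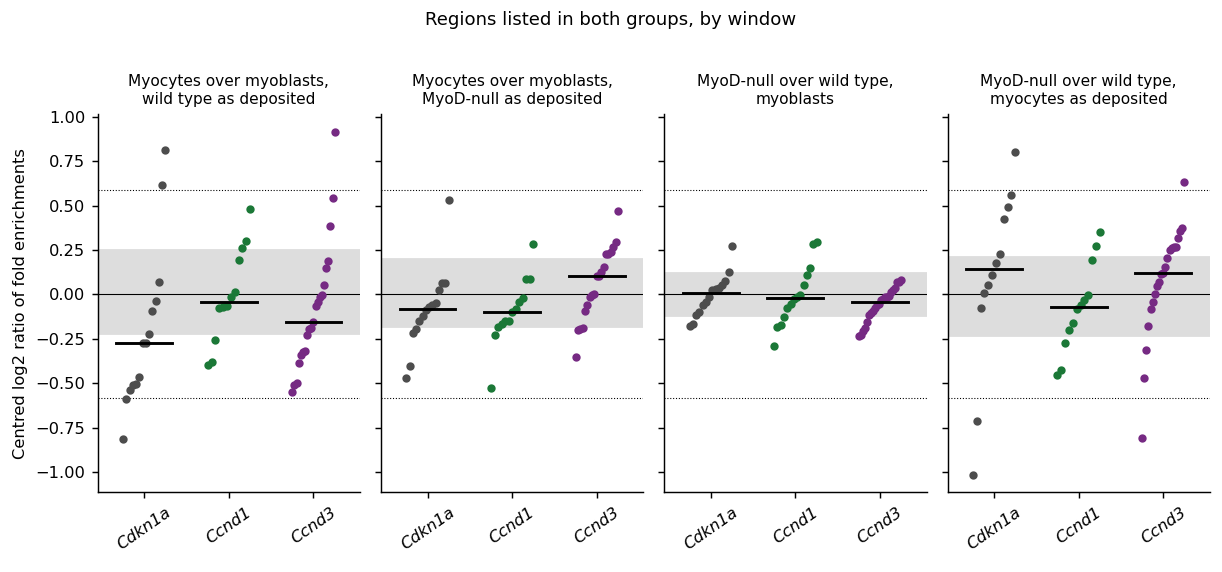
Centred log2 ratios of fold enrichment at regions listed in both groups of a comparison, by window, in 1 panel per comparison with the deposited genotypes. Each point is 1 region, the black bar is the median of the window, the grey band spans the middle 50% of all shared regions in the genome and dotted lines mark 1.5 times. Points past the dotted lines appear in the panels that involve wild-type-deposited myocytes and in neither of the others.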

How the data were processed

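ATAC-seq of 12 samples in 4 groups of 3 was available as 1 peak list per group. Per the labels' protocols, cells were lysed in a detergent buffer and transposed with a Nextera kit. Per the submitters' processing notes the build was mm9 and the tools MACS2 and deepTools, without versions; the aligner, the peak caller's settings and any shift of reads for the transposase are not given in the sources. The deposited peak names refer to merged files with a MAPQ30 tag, so the authors called peaks on merged replicates.

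The deposited fold enrichment of a peak is a ratio of pileup to local background. For each peak the authors deposited a −log10 p and a −log10 q, with a lowest −log10 q of 2.02, and the deposited score was not used. The summit reads and local background were taken as the pair that gives both the deposited fold, as (reads + 1) / (background + 1), and the deposited −log10 p by a Poisson model. The pair met the −log10 p to within 0.01 for all members and for 100.0% of peaks in each list. Read totals per sample are unknown. These reads are not independent molecules, and intervals cover counting error only.

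Mitochondrial peaks (2 or 3 per list) were removed. Peaks of the 4 lists that overlapped by 1 bp or more were merged into regions, and a region with several peaks of 1 list took the strongest. With 1 list per group no test was run. The windows, members and lists were chosen with earlier results of these data known. Named with coordinates were, per window, the 4 regions with the highest mean fold, and in each direction of each comparison the region with the largest ratio and the strongest region listed in 1 list only. The MyoD comparison of the myocyte lists and both differentiation comparisons share lists. Promoter windows matched by symbol for 2 of the 3 genes (2 for Cdkn1a, 2 for Ccnd3). On simulated peaks, each of 6 known quantities came back to within 1 percent. Alternatives were a −log10 q of at least 5, lists of equal length, other overlap and window rules, no centring, other strength measures, and genotypes from the peak names. Tables were made with pandas 2.3.3, numpy 2.4.6 and scipy 1.17.1, and plots with matplotlib 3.10.9, in Python 3.11.15.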

Additional observations from a re-analysis of the deposited data

Results flagged for a closer look

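Each difference here is between the effects of differentiation in the lists deposited as MyoD-null and as wild type, which went opposite ways. None was tested, since each group has 1 list, and reading the genotypes from the peak names would exchange the myocyte lists. In the Cdkn1a window the number of listed peaks differed by -5 (myocytes minus myoblasts) for MyoD-null and by 4 for wild type. In the Ccnd3 window it differed by -3 for MyoD-null and by 4 for wild type. The whole lists changed in the same directions as both windows. They went from 101755 peaks in myoblasts to 88233 in myocytes for MyoD-null, and from 98097 to 112030 for wild type. With lists of equal length the Ccnd3 differences are 3 and 2, and at a −log10 q of at least 5 they are 0 and 5, so the opposite directions are lost there; the Cdkn1a differences are -2 and 1 at equal length and -5 and 1 at that q. The median centred log2 ratio of the Ccnd3 window was 0.10 for MyoD-null and -0.16 for wild type. By reads over the genome-wide background it was 0.21 and 0.13, and without centring 0.27 and 0.19, so the signs no longer differ. At the Cdkn1a +18.1 kb site the centred log2 ratio was -0.47 for MyoD-null and 0.62 for wild type, with counting intervals of -1.25 to 0.27 and 0.02 to 1.23.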

How the results depend on the processing

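All 48 recounts of the listed peaks per window stayed within 1.5 times, as did 24 of 38 recounts of peaks without overlap. Of 69 recomputed medians, 49 moved by no more than the counting half-width of the mean ratio of the window or, as percentiles, kept their sign. A median near 0 could change sign within that width, as at Ccnd1 between the myocytes, from -0.07 to 0.07 by the peak names. With a reciprocal overlap of 50% the peaks without overlap became 12 of MyoD-null-deposited myocytes against MyoD-null myoblasts and 23 in return, 11 of wild-type myoblasts against wild-type-deposited myocytes, and 16 of MyoD-null against wild-type myoblasts and 8 in return. With lists of equal length they were 11 of MyoD-null-deposited myocytes against MyoD-null myoblasts and 8 in return (5 and 12 as deposited), 12 of MyoD-null-deposited against wild-type-deposited myocytes and 10 in return (6 and 15), so both imbalances turned round. They were 9 and 9 for wild-type differentiation (13 and 7), and 4 of MyoD-null against wild-type myoblasts, also 4 at a −log10 q of at least 5. With genotypes from the peak names they were 8 of wild-type myocytes and 11 of wild-type myoblasts against each other, 13 of MyoD-null myocytes against MyoD-null myoblasts, and 15 of MyoD-null and 6 of wild-type myocytes against each other. For the overlap, length and q settings no share of the whole lists is given. The counts under those settings therefore cannot be set against the genome, and the number of member peaks also changed with length and q.

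Without centring, the median log2 ratios (Cdkn1a, Ccnd1, Ccnd3) were 0.0744, 0.31 and 0.19 for wild-type differentiation, 0.0896, 0.0682 and 0.27 for MyoD-null differentiation, and -0.0177, -0.23 and -0.0399 for MyoD-null-deposited over wild-type-deposited myocytes. By summit reads over the genome-wide background, wild-type differentiation gave 0.43 at Cdkn1a and 0.13 at Ccnd3, MyoD-null differentiation 0.14 at Cdkn1a, and the myocyte comparison -0.27 at Cdkn1a and -0.21 at Ccnd3. By the peak names, wild-type differentiation gave -0.10 at Cdkn1a and -0.0236 at Ccnd3, MyoD-null differentiation -0.25 and -0.035, and MyoD-null over wild-type myocytes -0.14 and -0.12. Centring and the exchange of lists change these values by construction, and for the other settings the cause was not tested.

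No paired analysis was possible because each group has 1 list called on merged replicates, and leaving out a replicate was not possible for the same reason. Regions near the fewest reads that a list can show are the least certain.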
